A study of Citrus sinensis with 6 samples.

Results

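The citrate cycle genes of sweet orange (Citrus sinensis) leaves are described here under boron (B) deficiency. The members were the genes whose KEGG pathway annotation in the expression table names the citrate cycle (TCA cycle), and they numbered 46 of 29875 genes. Annotation placed them and no measured value entered the rule, although earlier results of these data were known when the list was chosen. RNA sequencing was done on leaves of tissue-cultured plants, which the paper names as the Bingtang variety, after 25 days, with 3 libraries of the B-deficient group (T) and 3 of the control group (CK). The design text gives a supply of 0.01 mg/L boron for T and 0.25 mg/L for CK, and the paper describes the supply as boric acid. The treatment entry in the labels gives 0.01 mg/L for all 6 libraries, so the groups follow the library titles, which name B deficiency for T and sufficient B for CK. The titles read leaf for T and leaf blades for CK, so a difference in the material taken cannot be told apart from the supply. MS nutrient solution was used for both groups. The design text calls the 3 libraries of a group biological replicates, but the labels do not say whether they came from separate plants or pools, and p-values therefore measure the spread between these libraries.

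The citrate cycle oxidises the acetyl group of acetyl-CoA to carbon dioxide in the mitochondrial matrix and passes the electrons to the respiratory chain. In leaves its enzymes also supply carbon skeletons for nitrogen assimilation, and citrate and malate are exported, stored in the vacuole or exchanged between organelles. Several of the enzymes have relatives in the cytosol, the peroxisome or the plastid that serve other routes. The KEGG map also holds the pyruvate dehydrogenase complex, which feeds the cycle with acetyl-CoA, phosphoenolpyruvate carboxykinase, which draws on oxaloacetate, and ATP citrate lyase, which splits citrate in the cytosol.

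Levels are given as FPKM, which are reads scaled by gene length and by library depth and can be compared between genes. Whole reads were recovered from the FPKM values, and 17689351 to 24026313 reads per library fell in genes. Of the marker lists, the antenna proteins of the light-harvesting complexes, which mark leaf mesophyll, summed to 9884, 20167 and 9934 FPKM in T1, T2 and T3 and to 15372 to 19642 FPKM in CK, so that T1 and T3 were below every CK library, with 2 of 17 genes at 0 in every library. Genes of DNA replication, a sign of dividing tissue, summed to 541 to 877 FPKM over 45 genes in T and to 498 to 719 FPKM in CK. The 7 genes of xylem development summed to 51.4 to 66.7 FPKM in T and 43.3 to 93.3 FPKM in CK, and the 75 genes of leaf senescence to 2188 to 2403 FPKM in T and 1385 to 2808 FPKM in CK. T and CK overlapped in all 4 lists, and the part of these lists in the results was not tested. In leaf RNA, fewer cells of a type and less RNA per cell cannot be told apart.

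No citrate cycle gene passed the test of T against CK after correction over all genes, while 34 of the 45 tested members had a fitted level above that of CK. Cs_ont_1g000500, annotated as succinate dehydrogenase, was listed at 0 FPKM in all 6 libraries. The other 45 reached 1 FPKM in at least 3 libraries and were tested among 16421 genes with limma on log2(FPKM + 1), and the fold changes below are T minus CK on that scale, which understates the change of low genes. At an adjusted p under 0.05 (Benjamini-Hochberg over all tested genes) limma called 0 members, against a background of 0.00609%, which is 1 gene of 16421. At an unadjusted p under 0.05 it gave 2 members higher in T, against a background of 2.29%, and 2 lower, against 2.49%, so the unadjusted counts were 4.44% of the members in each direction. The voom test on recovered reads likewise gave 0 members at the adjusted threshold and 4 at the unadjusted one, which 4.46% of all tested genes passed. A fold change criterion was also used, after the study's methods, which asks for 2-fold or more with an unadjusted p up to 0.05. By that criterion 1 member was higher, against a background of 1.27%, and 1 was lower, against 1.08%, and single calls of this kind stand near the background.

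The direction of the fitted values was less even than in all genes. A positive log2 fold change was found in 75.6% of the tested members, against a background of 53.2%, and the median was 0.25 in the members and 0.02 over all tested genes. The median size of the change was also larger, at 0.32 on the log2 scale against 0.18, although the spread within the groups was smaller (median SD of 0.25 in the members and 0.31 over all tested genes). The members were more abundant than most genes, with a median of 33.4 FPKM against 12.5 FPKM. Every T library was above every CK library in 9 members (20%), against a background of 4.46%. Every T library was below every CK library in 2 members (4.44%), against 3.71%. With 1 library left out, this count was 5 without T2 (8.46% of all tested genes) and 4 without CK1 (13.5%). It was 3 without T3 (11.2%), CK2 (6.05%) or CK3 (7.97%), and 2 without T1 (4.63%). These shares are descriptions without a test, because genes of 1 library share its depth and its tissue.

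**Figure D1:**
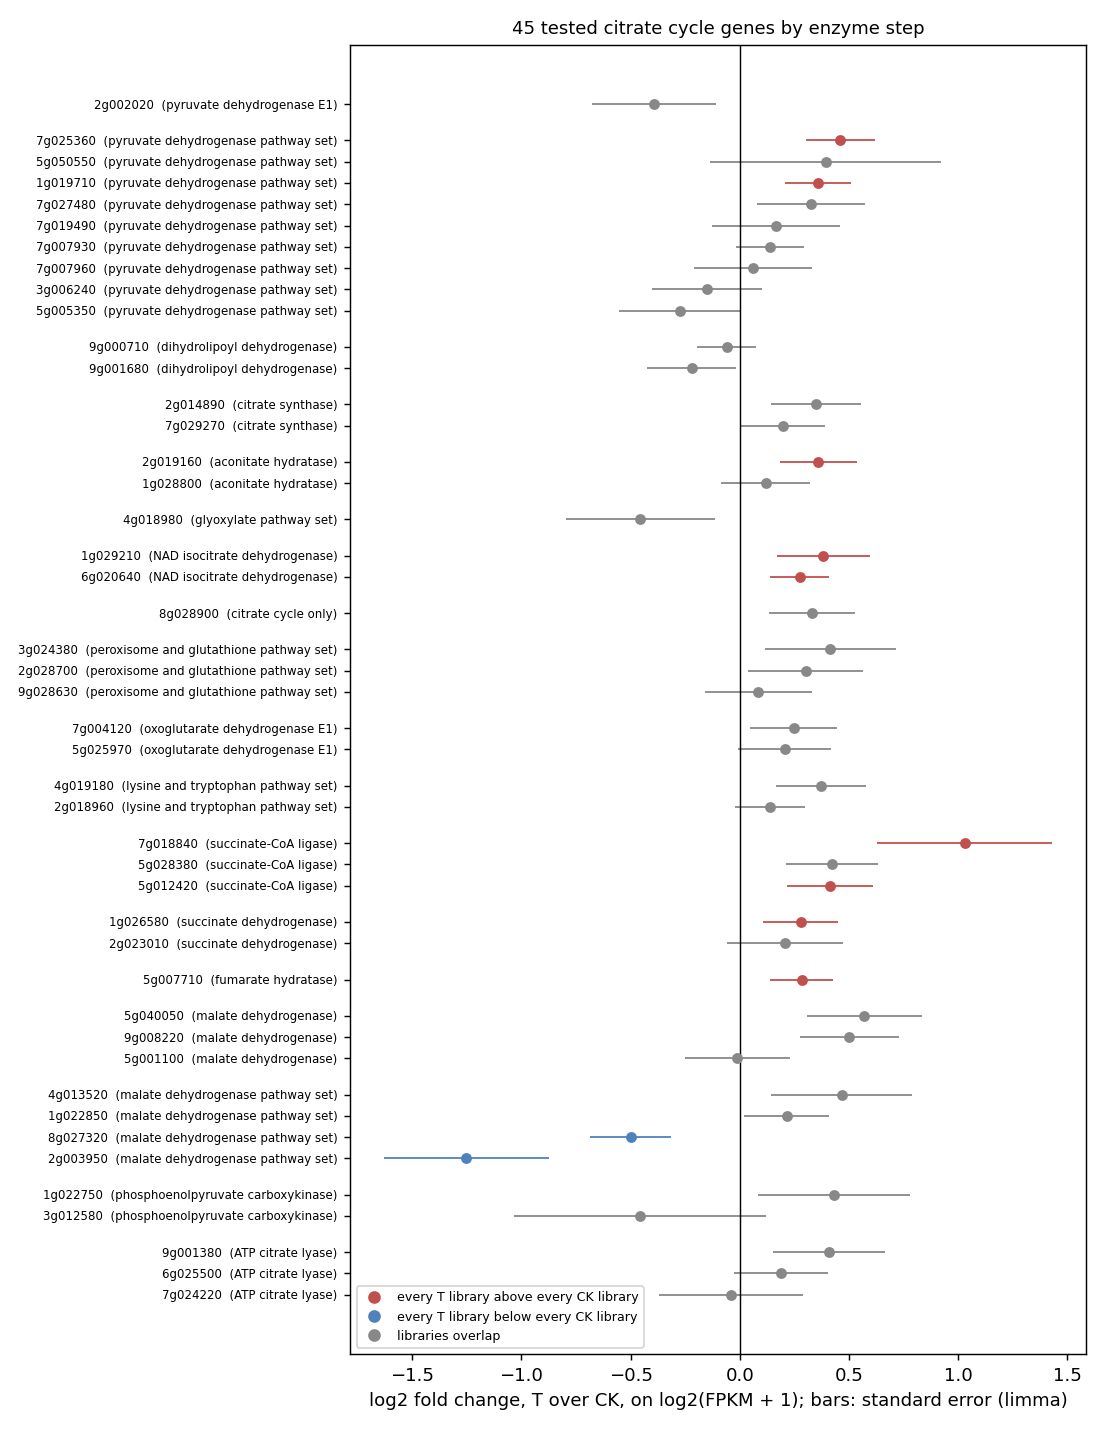
Fitted log2 fold change (T minus CK, on log2(FPKM + 1)) of the 45 tested citrate cycle genes, by enzyme step, with bars of 1 standard error and colour for the genes without overlap between the groups (red where T is above CK, blue where T is below). The points of 34 genes lie above 0, and Cs_ont_2g003950 of the malate dehydrogenase pathway set lies lowest at -1.25.

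Over the 6 libraries 64.5% of the 990 pairs of tested members were positively correlated (Pearson, log2 scale), with a median of 0.33. The members thus varied in part together, by library as well as by group. Their median deviation from each gene's own mean over the 6 libraries was 0.20, 0.16 and -0.03 in T1, T2 and T3 on the log2 scale, against -0.06, -0.31 and -0.05 in CK1, CK2 and CK3. Over all tested genes the same medians ran from -0.03 to 0.06 in T and from -0.09 to 0.12 in CK. CK2 was thus the low library, and T1 and T2 were the high ones, with T3 close to CK1 and CK3. CK2 held the lowest value of 25 of the 45 members and T1 of none, whereas T1 held the highest value of 17 and T2 of 14. Without CK2 the median log2 fold change of the members was 0.13 and 32 of 45 were above 0, and without T1 the median was 0.18. The antenna sum was 19642 FPKM in CK2, the highest of CK, 20167 FPKM in T2, and 9884 and 9934 FPKM in T1 and T3. The DNA replication sum was 598, 877 and 541 FPKM in T1, T2 and T3. In CK1, CK2 and CK3 it was 501, 498 and 719 FPKM, so that it was lowest in CK2 and highest in T2. Whether either list bears on the member medians was not tested. The 46 genes together made up 0.521%, 0.435% and 0.437% of the summed FPKM in T1, T2 and T3, against 0.417%, 0.364% and 0.408% in CK1, CK2 and CK3. The shares of T were all above those of CK. Phosphoenolpyruvate carboxykinase gave 21.2% of the summed FPKM of the members over the 6 libraries. Without its main gene, Cs_ont_1g022750, the members summed to 2087, 2001 and 1749 FPKM in T, against 1789, 1575 and 1808 FPKM in CK. T3 was then below CK1 and CK3 in FPKM, and the groups overlapped. With that gene the sums were 2855, 2370 and 2304 FPKM in T, against 2278, 1924 and 2181 FPKM in CK. The percentage of the summed FPKM was not taken without that gene.

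**Figure D2:**
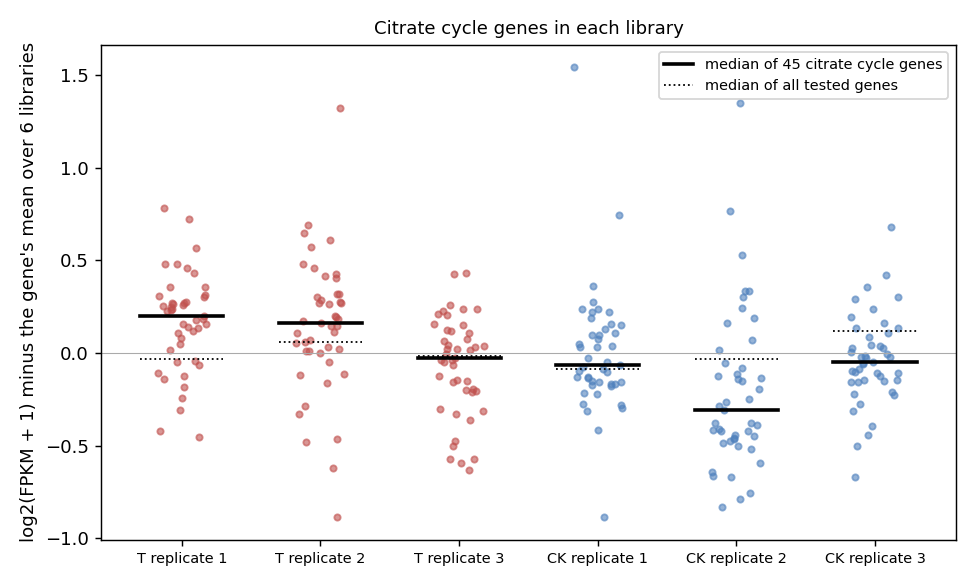
Deviation of each citrate cycle gene from its own mean over the 6 libraries (log2 scale) in T1 to T3 and CK1 to CK3, with the median of the members and the median over all tested genes. The member median is highest in T1 at 0.20 and lowest in CK2 at -0.31.

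Enzyme names came from the GO molecular function of the table for 26 members. The other 20 carry no enzyme name there and were grouped by the other KEGG pathways they are listed in. A group is called, for example, the malate dehydrogenase pathway set where its pathways are those of the genes named malate dehydrogenase, without a claim that each gene encodes that enzyme. Of the 25 tested members with an enzyme name, 19 had positive fold changes (median 0.28 on the log2 scale), and of the 20 grouped by pathway 15 did (median 0.19). For single genes an exact permutation test of 3 against 3 libraries can give no two-sided p below 0.1, which is the value for each gene without overlap. The values of each library are therefore given beside the limma fit.

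Pyruvate dehydrogenase turns pyruvate into acetyl-CoA, the substrate of the cycle, and 7 of the 10 tested genes placed there by name or pathway set had positive fold changes. Cs_ont_7g025360, annotated to the mitochondrion and the cytosol, had 40.8, 36.8 and 38.6 FPKM in T, against 30.8, 23.6 and 29.6 FPKM in CK. All 3 T libraries were above all 3 CK libraries, and CK2 was the lowest. The log2 fold change was 0.46 ± 0.16 (SE, limma, n = 3 each), with an unadjusted p of 0.0245 and an adjusted p of 0.926. Cs_ont_1g019710, annotated to the mitochondrion and the chloroplast, had 40.4, 39.7 and 39.2 FPKM in T, against 33.9, 26.5 and 32.6 FPKM in CK. The T libraries lay close to each other and above every CK library. Its log2 fold change was 0.36 ± 0.15 (SE), with an adjusted p of 0.999 in limma.

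The 3 genes of this step annotated to the chloroplast alone, or to the chloroplast and the cytosol, had negative fold changes and overlapping groups, and GO names an enzyme for 1 of them. The plastid form of the complex makes acetyl-CoA for fatty acid synthesis. Cs_ont_5g005350, the most abundant gene of this pathway set in the 6 libraries, had 70.2, 79.1 and 58.8 FPKM in T, against 56.5, 109.9 and 93.7 FPKM in CK. CK1 was below every T library, and the groups overlapped (log2 fold change -0.28 ± 0.28, SE). Cs_ont_2g002020, the only member that GO names as the E1 component, had 17.7, 26.1 and 13.3 FPKM in T, against 18.8, 27.0 and 28.8 FPKM in CK, and also overlapped (-0.39 ± 0.28, SE). Cs_ont_3g006240 was at -0.15 ± 0.25 (SE) on the log2 scale.

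Dihydrolipoyl dehydrogenase, the flavoprotein shared by the pyruvate and oxoglutarate complexes and by glycine decarboxylase, had the only negative fold change among the tested members annotated to the mitochondrion. Cs_ont_9g000710, annotated to the mitochondrion and the chloroplast, had 37.0, 35.1 and 40.3 FPKM in T, against 39.3, 40.2 and 37.7 FPKM in CK. T3 was the highest of all 6 libraries and T2 the lowest (log2 fold change -0.06 ± 0.14, SE). The chloroplast gene Cs_ont_9g001680 averaged 16.4 ± 3.26 FPKM in T and 19.2 ± 3.05 FPKM in CK (SD, n = 3 each). The members placed at pyruvate dehydrogenase or named dihydrolipoyl dehydrogenase were also summed by compartment where the annotation names one of the 2 organelles. Cs_ont_1g019710 and Cs_ont_9g000710, annotated to both, were counted with the mitochondrion. The pathway-set genes without a compartment were left out of these sums. Among them was Cs_ont_7g027480, with 75.7, 71.9 and 63.5 FPKM in T, against 74.1, 39.8 and 59.0 FPKM in CK. The genes with a mitochondrion annotation (Cs_ont_1g019710, Cs_ont_7g025360 and Cs_ont_9g000710) had 118, 112 and 118 FPKM in T, against 104, 90.3 and 99.9 FPKM in CK. Those with the chloroplast and not the mitochondrion (Cs_ont_2g002020, Cs_ont_3g006240, Cs_ont_5g005350 and Cs_ont_9g001680) had 124, 155 and 102 FPKM in T, against 112, 184 and 167 FPKM in CK. The first sum did not overlap between the groups, whereas the second did. The ratio of the first sum to the second was 0.955, 0.719 and 1.16 in T, against 0.928, 0.489 and 0.599 in CK, and T2 was below CK1. These sums were formed after the annotation and the values had been seen.

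Citrate synthase joins acetyl-CoA and oxaloacetate, and both of its genes had positive fold changes without a call. Cs_ont_2g014890, annotated to the peroxisome, where citrate synthase works in fatty acid breakdown, was the more abundant one, with 88.3, 74.2 and 86.6 FPKM in T, against 81.9, 52.4 and 63.2 FPKM in CK. T2 was below CK1, so the groups overlapped (log2 fold change 0.35 ± 0.21, SE). The mitochondrial gene Cs_ont_7g029270 averaged 23.0 ± 4.23 FPKM in T and 19.8 ± 2.58 FPKM in CK (SD, n = 3 each).

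Aconitate hydratase isomerises citrate to isocitrate. Cs_ont_2g019160, annotated to mitochondrion, chloroplast and cytosol, had 86.3, 88.5 and 75.0 FPKM in T, against 74.7, 54.7 and 65.5 FPKM in CK. The groups did not overlap, but the lowest T library was 75.0 FPKM and the highest CK library 74.7 FPKM, and the log2 fold change was 0.36 ± 0.18 (SE). The second gene, Cs_ont_1g028800, averaged 45.4 ± 1.76 FPKM in T and 42.6 ± 9.78 FPKM in CK (SD, n = 3 each), with CK2 as the low library at 31.3 FPKM.

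NAD-dependent isocitrate dehydrogenase, the first oxidative step of the cycle, had 2 genes, and neither overlapped between T and CK. Cs_ont_6g020640 had 47.8, 45.1 and 41.9 FPKM in T, against 36.2, 37.3 and 37.2 FPKM in CK. The CK libraries were close to each other, and CK2 was not the lowest of them (log2 fold change 0.28 ± 0.13, SE, adjusted p of 0.999 in limma). Cs_ont_1g029210, a less abundant gene, had 10.5, 7.44 and 7.63 FPKM in T, against 7.12, 5.08 and 6.70 FPKM in CK. T1 was the high library, and the other T libraries lay just above CK1 (log2 fold change 0.38 ± 0.21, SE).

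Another 3 members are also listed in the peroxisome and glutathione pathways. In plants the NADP-dependent isocitrate dehydrogenase, a source of NADPH and of 2-oxoglutarate outside the cycle, is listed in those maps, but the table names no enzyme for these genes. Cs_ont_3g024380, one of the most abundant members, had 249, 194 and 201 FPKM in T, against 215, 106 and 177 FPKM in CK. CK1 was above T2 and T3, so the groups overlapped (log2 fold change 0.42 ± 0.30, SE).

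Oxoglutarate dehydrogenase, the second oxidative decarboxylation, was represented by 2 genes for its E1 component. Cs_ont_5g025970 had 81.4, 60.3 and 70.5 FPKM in T, against 70.4, 47.6 and 66.6 FPKM in CK, with T2 below CK1 and CK3 (log2 fold change 0.21 ± 0.21, SE). Cs_ont_7g004120 averaged 20.7 ± 4.70 FPKM in T and 17.0 ± 1.34 FPKM in CK (SD, n = 3 each). A further 2 members are listed in lysine degradation and tryptophan metabolism and carry no enzyme name. The more abundant of them, Cs_ont_2g018960, averaged 60.7 ± 7.84 FPKM in T and 54.9 ± 3.63 FPKM in CK (SD, n = 3 each, log2 fold change 0.14 ± 0.16, SE). Cs_ont_8g028900, which is listed in no KEGG pathway but the citrate cycle, had 46.0, 39.7 and 35.7 FPKM in T, against 37.0, 25.2 and 34.4 FPKM in CK, and overlapped at T3 and CK1.

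Succinate-CoA ligase, which forms ATP or GTP at the substrate level and releases succinate, had positive fold changes in all 3 of its genes. Its 3 genes summed to 152 ± 31.8 FPKM in T and 109.7 ± 8.43 FPKM in CK (SD, n = 3 each). T1 and T2 stood above every CK library, while T3 was level with CK1. Cs_ont_5g012420 had 74.8, 78.0 and 52.5 FPKM in T, against 52.1, 46.9 and 52.2 FPKM in CK, with T3 just above the highest CK library (log2 fold change 0.41 ± 0.20, SE). Cs_ont_5g028380 had 93.4, 82.4 and 60.0 FPKM in T, against 62.0, 50.9 and 59.8 FPKM in CK, with T3 below CK1 (0.42 ± 0.21, SE).

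The third gene, Cs_ont_7g018840, was the member past the fold criterion in the higher direction. It had 3.52, 8.54 and 2.74 FPKM in T, against 1.06, 2.17 and 1.90 FPKM in CK, from 28 to 267 reads per library. All T libraries were above all CK libraries, and T2 was the high one. The log2 fold change was 1.03 ± 0.40 (SE, limma), with an unadjusted p of 0.0394 and an adjusted p of 0.986. It stayed past the criterion only without T3 among the 6 fits with 1 library left out, with log2 fold changes of 1.16 without T1, 0.62 without T2, 0.84 without CK1, 1.15 without CK2 and 1.09 without CK3. With libraries weighted by limma's array weights the value was 0.84, and the criterion was missed as well. The gene was expressed far below the other 2 of this step.

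Succinate dehydrogenase oxidises succinate to fumarate and is at the same time complex II of the respiratory chain. Cs_ont_1g026580 had 76.2, 73.6 and 75.7 FPKM in T, against 62.2, 52.2 and 72.5 FPKM in CK. The T libraries lay close together, and the CK libraries were spread, with CK3 just below T2 (log2 fold change 0.28 ± 0.17, SE, adjusted p of 0.999 in limma). Cs_ont_2g023010 averaged 24.7 ± 4.48 FPKM in T and 21.7 ± 6.54 FPKM in CK (SD, n = 3 each). Fumarate hydratase, which adds water to fumarate to give malate, had 1 gene in the list. Cs_ont_5g007710, annotated to the mitochondrion and the cytosol, had 26.2, 28.7 and 23.9 FPKM in T, against 22.6, 21.4 and 20.1 FPKM in CK. The groups did not overlap (log2 fold change 0.28 ± 0.14, SE), and T3 lay just above CK1.

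**Figure D3:**
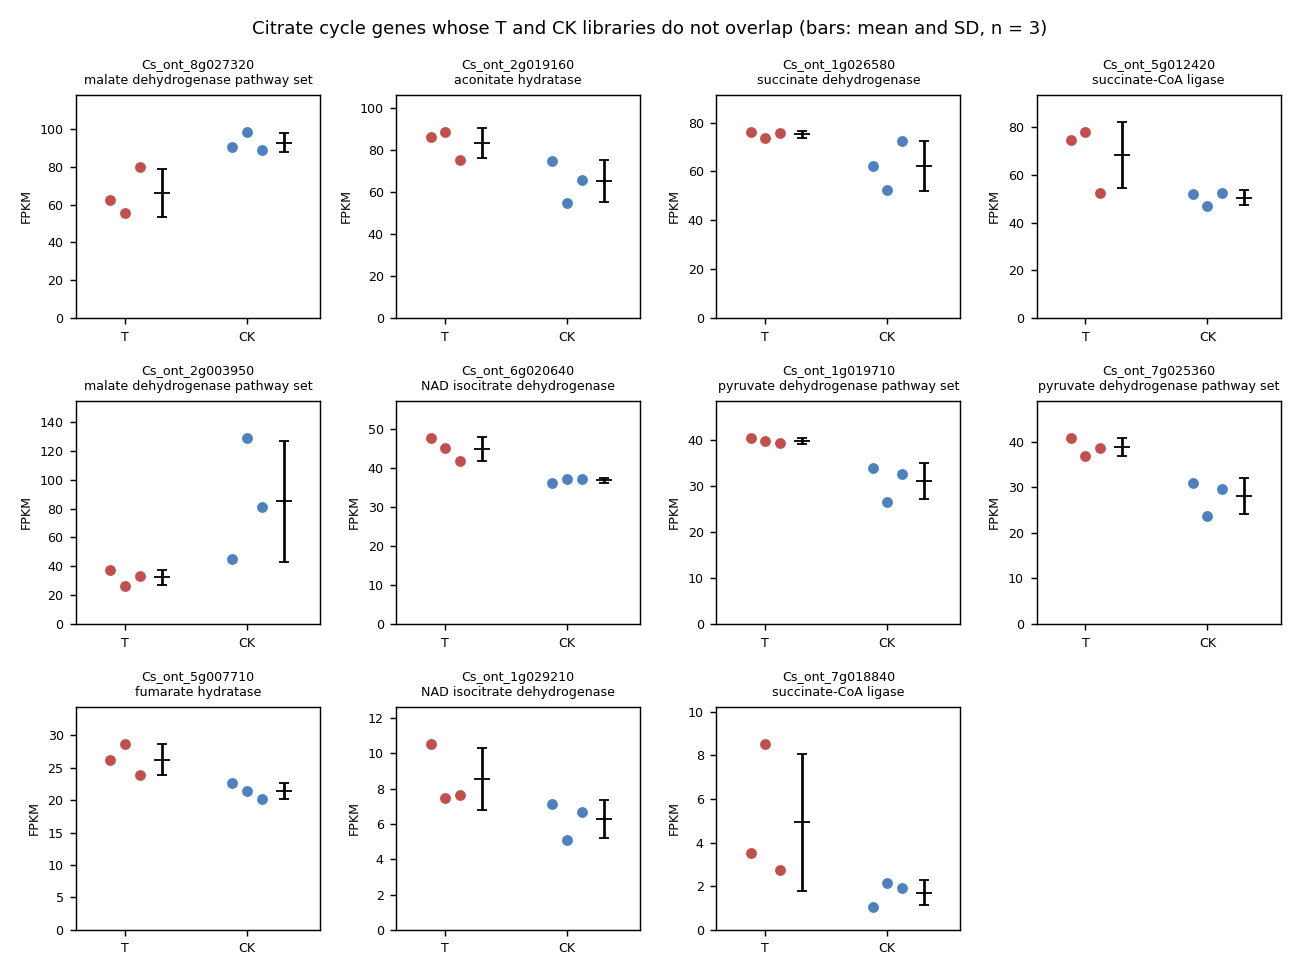
FPKM of the 11 citrate cycle genes without overlap between the groups, in the 3 T libraries and the 3 CK libraries (points) with the mean and SD (bars). In 9 panels every T point lies above every CK point, and in 2 panels, Cs_ont_2g003950 and Cs_ont_8g027320, every T point lies below.

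Malate dehydrogenase closes the cycle by oxidising malate to oxaloacetate, and its relatives in the cytosol, plastid and peroxisome move reducing power between compartments. Of the 3 genes named malate dehydrogenase, Cs_ont_9g008220, annotated to the chloroplast and the cytosol, had 236, 208 and 174 FPKM in T, against 139.7, 121 and 177 FPKM in CK. T3 and CK3 were close to each other, so the groups overlapped (log2 fold change 0.50 ± 0.23, SE). Cs_ont_5g040050, annotated to the mitochondrion and the chloroplast, had 32.4, 27.1 and 20.9 FPKM in T, against 20.3, 12.3 and 21.1 FPKM in CK, where T3 again fell among the CK libraries (0.57 ± 0.26, SE). The third gene, Cs_ont_5g001100, averaged 1.94 ± 0.361 FPKM in T and 1.97 ± 0.449 FPKM in CK (SD, n = 3 each).

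The 4 genes of the malate dehydrogenase pathway set had 2 positive and 2 negative fold changes. Cs_ont_2g003950, with no compartment in the annotation, had 37.2, 26.6 and 33.3 FPKM in T, against 45.1, 129 and 80.8 FPKM in CK. All T libraries were below all CK libraries, and CK2 was the highest. The log2 fold change was -1.25 ± 0.38 (SE, limma), with an unadjusted p of 0.0143 and an adjusted p of 0.834, and it was the member past the fold criterion in the lower direction. Without CK2 the value was -0.89 and the criterion was no longer met. It was 1 of 6 members that were highest in CK2, while 25 of the 45 were lowest there.

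Cs_ont_8g027320, annotated to the peroxisome, had 62.7, 55.4 and 80.1 FPKM in T, against 90.7, 98.5 and 89.1 FPKM in CK. All T libraries were lower, and the CK libraries lay closer to each other than the T libraries did (log2 fold change -0.50 ± 0.19, SE, limma, unadjusted p of 0.033, adjusted p of 0.969). Malate dehydrogenase of the peroxisome is known to reoxidise NADH in fatty acid breakdown and to supply NADH in photorespiration. The other peroxisomal gene of the set, Cs_ont_1g022850, had 30.8, 27.8 and 24.8 FPKM in T, against 28.1, 18.9 and 25.1 FPKM in CK, and overlapped (0.21 ± 0.19, SE). Cs_ont_4g013520 had 40.9, 53.8 and 26.5 FPKM in T, against 37.6, 20.4 and 27.9 FPKM in CK, with T3 below 2 of the CK libraries (0.47 ± 0.32, SE).

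The 3 genes named malate dehydrogenase summed to 235 ± 37.0 FPKM in T and 166 ± 32.2 FPKM in CK (SD, n = 3 each). The 4 genes of the pathway set summed to 172, 163 and 165 FPKM in T, against 202, 267 and 223 FPKM in CK. The pathway set was lower in every T library, whereas T3 lay below CK3 in the named genes. All 7 together averaged 401 ± 40.4 FPKM in T and 396 ± 30.4 FPKM in CK (SD, n = 3 each). The means of the named genes and of the pathway set differed in opposite directions, and the sum of the step overlapped between the groups.

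**Figure D4:**
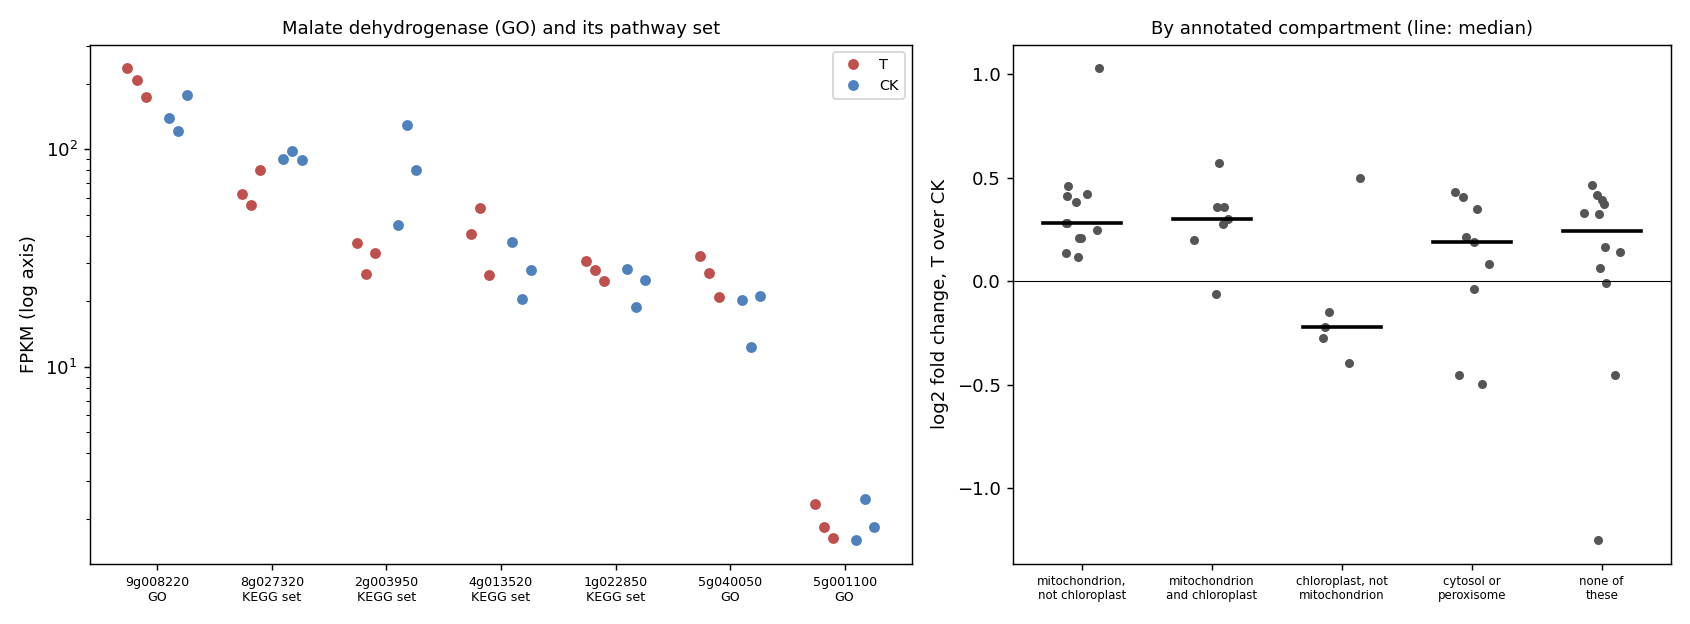
Left: FPKM (log axis) in each T and CK library of the 3 genes named malate dehydrogenase (GO) and the 4 genes of its pathway set (KEGG set). Right: log2 fold change (T minus CK) of the tested citrate cycle genes by annotated compartment, with the median as a line. The 12 genes annotated to the mitochondrion and not the chloroplast all lie above 0, and 4 of the 5 annotated to the chloroplast and not the mitochondrion lie below. Over all tested genes, 67.6% of 435 genes of the first class and 47.4% of 1082 of the second were above 0.

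Around the ring, phosphoenolpyruvate carboxykinase turns oxaloacetate into phosphoenolpyruvate in the cytosol. Cs_ont_1g022750 was the most abundant of all members, with 768, 369 and 555 FPKM in T, against 489, 349.7 and 373 FPKM in CK. T1 was the highest, and T2 was below 2 of the CK libraries (log2 fold change 0.43 ± 0.35, SE). The second gene, Cs_ont_3g012580, had 4.64, 4.60 and 8.13 FPKM in T, against 21.5, 5.76 and 3.87 FPKM in CK. Its mean in CK was set by CK1, and the groups overlapped (-0.46 ± 0.58, SE).

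ATP citrate lyase makes cytosolic acetyl-CoA for fatty acid elongation, waxes and isoprenoids and had 3 genes. Cs_ont_9g001380 had 60.2, 78.4 and 39.8 FPKM in T, against 42.4, 40.5 and 45.9 FPKM in CK. T2 was the highest and T3 the lowest of the 6 libraries (log2 fold change 0.41 ± 0.26, SE). The other 2 genes were at 0.19 ± 0.22 (SE) for Cs_ont_6g025500 and -0.04 ± 0.33 (SE) for Cs_ont_7g024220. Cs_ont_4g018980, whose only other KEGG pathway is glyoxylate and dicarboxylate metabolism, had 20.3, 23.4 and 14.6 FPKM in T, against 29.2, 38.9 and 16.3 FPKM in CK, with CK3 below T1 and T2 (-0.46 ± 0.34, SE).

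The compartment named in the GO annotation was a feature that the choice of members did not use. Of the 20 members annotated to the mitochondrion 19 were tested, and 18 of them (94.7%) had positive fold changes, with Cs_ont_9g000710 as the exception. Over all 658 tested genes with that annotation the share was 66.6%. All 9 members whose T libraries were above all CK libraries carried the mitochondrion annotation, which made 47.4% of the 19, against 7.29% of the 658. The median log2 fold change was 0.28 in the 19 members and 0.10 in the 658 genes. Of the 5 members annotated to the chloroplast and not the mitochondrion 1 was above 0 and 4 were below, with a median of -0.22, while 47.4% of the 1082 tested genes of that class were above 0 and their median was -0.01. The 9 members of the cytosol or peroxisome alone were split into 6 above 0 and 3 below, and the 12 without a compartment into 9 and 3. This grouping was chosen with the values in view and carries no test.

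Routes near the cycle were described from 39 further genes, called side-route genes here. They were annotated as malic enzyme, phosphoenolpyruvate carboxylase, isocitrate lyase, malate synthase, glutamate dehydrogenase, aspartate transaminase, alternative oxidase, or transporters of malate or citrate. Of these 27 were tested, and 16 (59.3%) had positive fold changes, against a background of 53.2%. At an adjusted p under 0.05 limma called 0 of them (also 0 in voom). At an unadjusted p under 0.05 it gave 1 higher (3.7%), against a background of 2.29%, and 1 lower (3.7%), against 2.49%. Both were past the fold criterion, against backgrounds of 1.27% and 1.08%, and single calls of this kind stand near the background. Glutamate dehydrogenase, which links 2-oxoglutarate and glutamate, was the higher one. Cs_ont_7g013990 had 92.5, 45.1 and 37.3 FPKM in T, against 41.3, 20.5 and 13.3 FPKM in CK, with CK1 above T3 (log2 fold change 1.22 ± 0.49, SE, limma, unadjusted p of 0.0431, adjusted p of 0.999). The lower one was annotated to malate transport. Cs_ont_2g000850 had 5.12, 5.90 and 3.70 FPKM in T, against 5.65, 40.2 and 66.1 FPKM in CK (-2.18 ± 0.82, SE, limma, unadjusted p of 0.0342, adjusted p of 0.977). CK1 fell among the T libraries, and CK2 and CK3 were the high libraries. Both side-route genes missed the criterion when CK2, CK3, T1 or T2 was left out.

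The other 25 tested side-route genes had fold changes in both directions without a call. The most abundant of them, malic enzyme gene Cs_ont_4g009010, which decarboxylates malate to pyruvate, averaged 187 ± 24.2 FPKM in T and 185 ± 14.4 FPKM in CK (SD, n = 3 each). Phosphoenolpyruvate carboxylase, which refills oxaloacetate, had Cs_ont_5g035810 as its main gene at 43.0, 47.0 and 44.7 FPKM in T, against 36.4, 36.0 and 42.2 FPKM in CK. Its T libraries were all above its CK libraries (log2 fold change 0.23 ± 0.14, SE), as were those of aspartate transaminase gene Cs_ont_2g026300 (0.28 ± 0.13, SE). These 2 genes were 7.41% of the 27 tested side-route genes, against a background of 4.46%. In 0 of the 27 was every T library below every CK library, against 3.71%. Larger fitted values with overlapping groups were those of malic enzyme gene Cs_ont_1g017500 (-0.49 ± 0.42, SE) and malate transport gene Cs_ont_7g011370 (-0.51 ± 0.50, SE). Alternative oxidase, which passes electrons from ubiquinol to oxygen past the later complexes of the respiratory chain, had 3 tested genes. The most abundant of them, Cs_ont_2g001180, was at 0.30 ± 0.23 (SE), Cs_ont_8g015160 at -0.39 ± 0.21 (SE) and Cs_ont_3g020470 at 0.98 ± 0.69 (SE) on the log2 scale. The last of these had 20.3, 10.2 and 16.4 FPKM in T, against 22.2, 2.26 and 6.16 FPKM in CK, with CK1 above every T library. The glyoxylate cycle enzymes were barely expressed, with isocitrate lyase gene Cs_ont_2g019460 at 0.0651, 0.204 and 0.191 FPKM in T, against 0.362, 1.10 and 0.192 FPKM in CK, and the malate synthase gene listed at 0 in all 6 libraries.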

How the data were processed

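RNA sequencing of 6 leaf libraries was analysed, 3 T and 3 CK. The deposited values are FPKM per gene, which the authors made, as the paper's methods state, by trimming with fastp, aligning with HISAT2, counting with HTSeq and normalizing. The paper names a release of the sweet orange genome for its gene family analysis, but its methods do not say that the reads were aligned to it, and tool versions are not stated. Further columns hold group averages and the authors' comparison (log2 fold change, p-value and call), which were not used. HISAT2 and HTSeq are named in the submitters' processing notes too. Whether reads were counted by strand is not given, which bears on genes that overlap. The paper's methods do not say how reads that match close paralogs were treated, so the levels of such genes are less certain. The gene identifiers were used as deposited, and gene functions came from the GO and KEGG columns of the same table.

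Reads were recovered from the FPKM steps for 22740 genes above 0, all of which came out whole within 0.001 reads, and served voom as an alternative and the depth. Genes of at least 1 FPKM in at least 3 libraries were fitted as log2(FPKM + 1) with limma 3.58.1 (lmFit, then eBayes with its trend option, R 4.3.3, two-sided, Benjamini-Hochberg over all tested genes, 4 residual degrees of freedom). The fold criterion asked for 2-fold or more with an unadjusted p up to 0.05. Named members were the most abundant of each step, those with an unadjusted p under 0.05 or past the fold criterion, those without overlap at a mean of at least 5 FPKM, and the 5 largest changes in each direction, and further members are named to complete a step. Compartment groups, sums over genes and the counts of genes without overlap with a library left out were chosen after the data were seen. The fit was tested on simulated data. The members and lists were chosen with earlier results of these data known.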

Additional observations from a re-analysis of the deposited data

How the results depend on the processing

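No member reached an adjusted p under 0.05 in limma under any alternative run (another pseudocount, filter or scaling, array weights, voom on recovered reads, the replicate block and each library left out), and every median log2 fold change of the members was positive, from 0.13 without CK replicate 2 to 0.34 with array weights, while that of all tested genes ran from -0.02 to 0.08. The count of members past the fold criterion, 2 as reported, was 1 with array weights and 1 with a filter at 5 FPKM. It was 0 to 2 with a library left out, at 0 without CK replicate 2. Over all tested genes 387 of 16421 passed as reported, 930 of 16421 with array weights and 263 of 12463 with the filter. With a library left out 222 to 729 genes passed, at 244 of 16132 without CK replicate 2. The count at an unadjusted p under 0.05, 4 as reported, was 18 with array weights (16 higher and 2 lower), when 14.7% of all tested genes passed. With a library left out it was 1 to 7, and the share of all tested genes moved as well, from 2.18% to 8.07%. It was 1 without CK2 (2.67% of all tested genes) or T1 (2.18%), and 7 (5 higher and 2 lower) without T3 (7.49%). Array weights gave T1 6.29 and no other library above 0.96, so that fit rests largely on T1. The count of side-route genes past the criterion, 2 as reported, was 1 with median-of-ratios scaling and 1 with voom, when 375 and 423 of 16421 genes passed. It was 0 to 3 with a library left out, at 0 without CK2, CK3, T1 or T2. Members with every T library above every CK library, 9 as reported, were 9 (20% of the members, 6.45% of all tested genes) without T1, 12 (26.7%, 8.35%) without T2, 19 (42.2%, 13.5%) without T3, 15 (33.3%, 9.26%) without CK1, 9 (20%, 5.94%) without CK2 and 13 (28.9%, 14.6%) without CK3. Those with every T library below, 2 as reported, were 2 to 5, while 4.63% to 13.5% of all tested genes were so placed. The cause of these changes was not tested. The labels number the libraries 1 to 3 in both groups. Deviations of same-numbered libraries correlated at 0.28, 0.21 and -0.04, and those of differently numbered ones at -0.40 to 0.23. These values do not settle whether equal numbers mark pairs, and the main fit took no pairs. With the replicate block 2 members passed the fold criterion, and 470 genes in all passed it, compared with 387 without the block. At an unadjusted p under 0.05 there were 2 members higher and 1 lower with the block, when 6.57% of all tested genes passed. With 3 libraries a group and FPKM values, small changes of single members are below what these data resolve.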
